A study of Sus scrofa with 21 samples.

Results

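FABP6 is the bile acid binding protein of the ileal enterocyte, and 6 distal small intestine samples with high FABP6 message were set beside 6 with low FABP6 message, drawn from 21 piglets. The groups were chosen on the measured values themselves. Expected counts were summed per gene and divided by the sample total, giving the depth-scaled unit CPM, samples with under 200 CPM of APOB were set aside, and the remaining 18 samples were sorted by FABP6. The 6 highest formed the FABP6-high group, the 6 lowest the FABP6-low group, and the 6 between them are called the middle samples. The working idea behind the sort was that FABP6 stands for position along the ileum. Position was not recorded in the labels.

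All 21 piglets were Danish Landrace/Yorkshire aged 24 to 25 days and received milk replacer. The control piglets (n = 10) had the replacer alone, and the starch piglets (n = 11) had it with wheat added. Each sample was whole tissue from 1 piglet, so fewer cells of a type and less message per cell cannot be told apart. The FABP6-high group held 3 control and 3 starch piglets, the FABP6-low group 2 control and 4 starch piglets, and both diets were pooled in each. Total expected counts per sample lay between 6719264 and 8610458.

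Bile acids are secreted into the duodenum, help to disperse fat, and are taken back up mainly in the terminal ileum. There the sodium-dependent transporter SLC10A2 carries them across the brush border, FABP6 binds them in the cytosol, and the SLC51A-SLC51B heterodimer exports them to the portal blood. The nuclear receptor FXR (NR1H4) senses them in the enterocyte and induces FABP6, both SLC51 subunits, NR0B2 and the hormone FGF19, which restrains bile acid synthesis in the liver. In mammals this uptake machinery is strongest at the distal end of the small intestine, whereas GATA4 marks its more proximal part.

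FABP6 (ENSSSCG00000017037) in the FABP6-high group was 5797 CPM in starch 10, 4818 in control 9, 4725 in starch 8, 4098 in control 6, 3764 in starch 11 and 2527 in control 4. In the FABP6-low group it was 897 CPM in starch 4, 646 in starch 6, 599 in starch 2, 454 in control 2, 336 in starch 5 and 255 in control 3. The group medians, 4412 and 526 CPM, stood 8.38-fold apart, and the fitted log2 difference (high minus low) was 2.97 with a standard error (SE) of 0.33. These values chose the groups and are a description only. The middle samples ran without a gap into both groups: the lowest FABP6-high sample had 2527 CPM and the highest middle sample 2433 (starch 9), and the highest FABP6-low sample had 897 CPM and the lowest middle sample 1012 (control 1).

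FABP6 was an abundant message in both groups. On the length-scaled FPKM values it ranked between 5 and 16 among all genes in the FABP6-high samples and between 47 and 162 in the FABP6-low samples. Its median was 11861 FPKM in the FABP6-high group and 1431 in the FABP6-low group. FABP2, the intestinal fatty acid binding protein of the same family, had median levels of 2958 and 2766 FPKM. FABP6 was thus the more abundant of the pair by FPKM median in the FABP6-high group and the less abundant in the FABP6-low group. The files list 1 FABP6 transcript, with a coding length of 432 bases.

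The 3 samples set aside had 23.1 CPM of APOB (control 8), 41.8 (control 5) and 3.68 (starch 3), and the next value up was 1012 (starch 4). FABP6 in them was 39.1, 18.6 and 0.368 CPM. VIL1, the brush-border protein villin, lay between 175 and 202 CPM in these 3 samples and between 835 and 1588 in the other 18. EPCAM, a protein of all gut epithelial cells, lay between 450 and 676 CPM in the 3 and between 491 and 1102 in the 18, so the ranges overlapped. Markers of other cells also moved with these 3 samples. The summed level of 10 macrophage and dendritic cell genes was 2326 to 3582 CPM in the 3 and 389 to 1322 in the 18, with 6 of the 10 higher in all 3 than in any of the 18. Granulocyte and mast cell genes (239 to 587 against 10.7 to 56.8 CPM), goblet cell genes (1856 to 3899 against 494 to 1588 CPM) and smooth muscle genes (26097 to 37499 against 7680 to 20690 CPM) were likewise higher in sum. Their part in the low APOB was not tested.

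**Figure D1:**
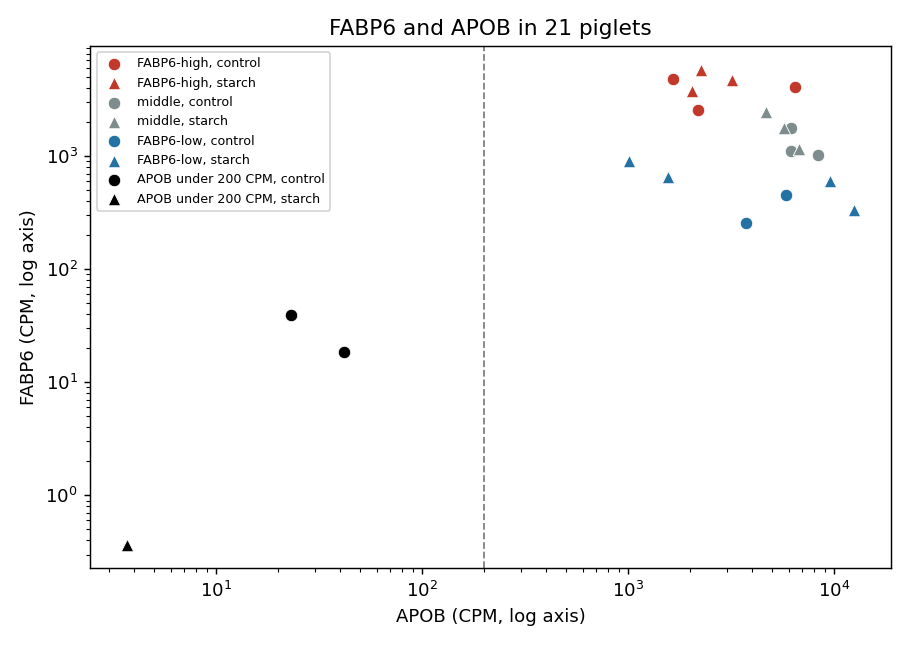
FABP6 (vertical) against APOB (horizontal) in CPM on log axes, 1 point per piglet, circles control and triangles starch, coloured by group, with the dashed line at the APOB minimum of 200 CPM. Starch 4 and starch 6 lie apart from the other FABP6-low samples, at 1012 and 1563 CPM of APOB.

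APOB, the structural protein of chylomicrons, was used by the rule as a minimum only. In the FABP6-high group it ran from 1655 to 6437 CPM (median 2219) and in the FABP6-low group from 1012 to 12466 (median 4779), with overlapping groups and a log2 difference of -0.89 (SE 0.57), or -1.35 without control 6 and -0.51 without starch 5. The FABP6-low group was uneven. Its starch 4 library had low levels of several messages of mature enterocytes, with 20.4 CPM of the peptidase MME, 32.8 of the peptidase ACE and 2.64 of the amino acid transporter SLC7A8, against at least 218, 399 and 75.9 CPM in the other 5 samples of the group. The same library had the highest level of SLC10A2 (33.8 CPM) of all 18 samples. SLC10A2, SLC51A and GATA4 are therefore also given without it below. Other named genes also shifted without starch 4. The log2 difference of FGF19 went from 0.36 to 0.12, of ABCC3 from 0.18 to 0.52 and of FABP2 from -0.41 to -0.65. That of AGR2 went from 0.83 to 1.26, and that of the calcium channel TRPV6 turned from -0.60 to 0.18. In the FABP6-high group starch 11 was lowest in the same 3 enterocyte messages, with 68.7 CPM of MME, 193 of ACE and 9.24 of SLC7A8. The other 5 samples of that group had at least 147, 329 and 44.2 CPM.

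Of 13036 genes tested besides FABP6 and APOB, 1 was called higher and 1 lower in the FABP6-high group. A call required that the 6 values of one group all lay above the 6 of the other on log2 CPM after TMM scaling, and that the log2 difference was at least 1 in size. The share called was 0.00767% in each direction. Both called genes were faint. GJA10, a gap junction protein, ran from 2.04 to 2.68 CPM (median 2.44) in the FABP6-high group and from 0.354 to 1.84 (median 1.08) in the FABP6-low group, a log2 difference of 1.15 (SE 0.34). CCDC126, a coiled-coil protein, ran from 0.595 to 1.39 CPM (median 0.716) and from 1.63 to 2.95 (median 2.25), a difference of -1.41 (SE 0.26). The rule for naming called genes asked for a mean of at least 5 CPM and so named neither. They are given because they were the only calls. No p-value is given for this contrast, because it repeats the sort.

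Leaving out 1 sample changed these counts, and fewer samples make complete separation easier by construction. Genes called higher numbered 6 without starch 10 or control 2, 5 without starch 6, 4 without starch 4 or control 3, 3 without control 6, and 2 without control 9, starch 11 or control 4. Genes called lower numbered 3 without control 9, starch 4 or starch 6, and 2 without starch 8, control 6, control 2 or control 3. CCDC126 was called in the fits without starch 4 and without starch 10, as was GJA10, and TSPO joined the higher genes in both.

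Of the same genes, 149 (1.14%) had a log2 difference of at least 1 in size whether or not the groups overlapped, with 89 higher and 60 lower in the FABP6-high group. The median difference of all genes was 0.03, and 54.6% were above 0. FABP6's own difference was exceeded by 3 genes. Few genes other than FABP6 were thus separated completely by the sort.

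Without the size requirement the groups did not overlap for 15 genes (0.115%), 11 higher and 4 lower, all named after their values were seen. TSPO, a cholesterol-binding protein of the outer mitochondrial membrane, was the most abundant of the higher ones. It ran from 37.1 to 52.4 CPM (median 43.1) in the FABP6-high group and from 12.1 to 30.3 (median 25.1) in the FABP6-low group, a log2 difference of 0.98 (SE 0.24). The middle samples spanned both groups, from 14.3 to 39.4 CPM. IGDCC4, an immunoglobulin-family membrane protein, followed with a difference of 0.95 (SE 0.23). The other higher genes were RIC3 (a chaperone of acetylcholine receptors), ATG16L2, ENSSSCG00000027890, ACHE (acetylcholinesterase), OBSL1, SHROOM1, PRPF40B and OSBPL7, with differences from 0.40 to 0.75. The lower genes besides CCDC126 were CARMIL1, OPA1 (an inner mitochondrial membrane fusion protein) and IL7 (a lymphocyte growth factor), with differences of -0.40, -0.37 and -0.46. None of the 15 belonged to any of the 33 gene lists examined.

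**Figure D2:**
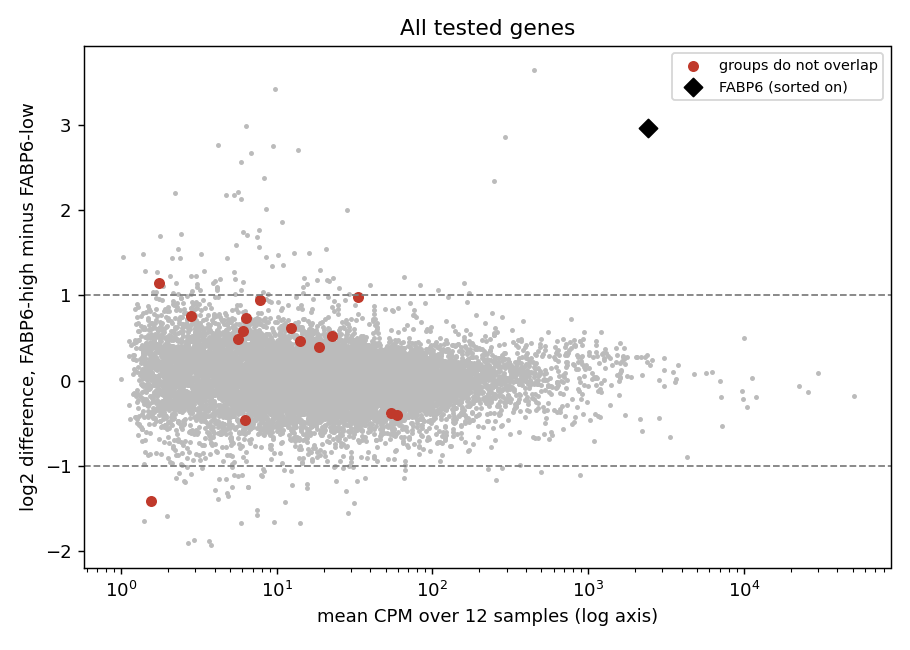
Log2 difference (FABP6-high minus FABP6-low, vertical) against mean CPM over the 12 samples (horizontal, log axis), 1 grey point per tested gene, dashed lines at 1 and -1, red points for the 15 genes whose groups did not overlap and a black diamond for FABP6. Red points outside the dashed lines are GJA10 and CCDC126, both at low CPM.

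The bile acid genes did not move as a block with FABP6. Of 12 tested members of the list besides FABP6, 5 were higher and 7 lower in the FABP6-high group. The median log2 difference was -0.19 against 0.03 for all genes. None was without overlap. Only 0.115% of all genes were, so the absence of such members from this list or those below is not read as a result. GPBAR1, the membrane receptor for bile acids, was below the filter on low counts.

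The uptake transporter SLC10A2 was low and uneven in every group. It ran from 0.680 to 29.0 CPM (median 5.77) in the FABP6-high group, from 0.398 to 9.35 (median 3.15) in the middle samples and from 0.263 to 33.8 (median 1.33) in the FABP6-low group. The log2 difference was 0.25 (SE 0.96). The highest values of the FABP6-high and FABP6-low groups each came from 1 piglet, control 9 and starch 4. Without starch 4 the difference was 2.49 and without control 9 it was -0.50. Starch 8, with 4725 CPM of FABP6 and 0.680 CPM of SLC10A2, overlapped the FABP6-low samples with or without starch 4.

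SLC51A, one subunit of the exporter, had the largest difference of the list after FABP6. It was 154 CPM in starch 10, 242 in control 9, 120 in starch 8, 121 in control 6, 110 in starch 11 and 139 in control 4. In the FABP6-low group it was 159 CPM in starch 4, 40.2 in starch 6, 50.5 in starch 2, 63.3 in control 2, 29.3 in starch 5 and 69.7 in control 3. Only starch 4 overlapped the FABP6-high samples. The log2 difference was 1.06 (SE 0.33) with starch 4 and 1.52 (SE 0.22) without it, and without it the groups did not overlap. The middle samples, from 41.4 to 82.0 CPM (median 57.1), resembled the FABP6-low group (median 56.9).

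SLC51B, the other subunit, ran from 133 to 250 CPM (median 204) in the FABP6-high group and from 50.6 to 179 (median 136) in the FABP6-low group, a log2 difference of 0.60 (SE 0.29). The groups overlapped. By length-scaled medians SLC51B was the more abundant subunit in each group, at 607 against 134 FPKM for SLC51A in the FABP6-high group and 405 against 59.1 in the FABP6-low group.

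The receptor, its other targets and further bile acid genes all overlapped between the groups. NR1H4, the bile acid receptor, had a median of 54.8 CPM in the FABP6-high group and 80.1 in the FABP6-low group (log2 difference -0.40, SE 0.26). Its partner RXRA differed by -0.45 (SE 0.22). FGF19, the ileal hormone, ran from 1.24 to 39.9 CPM and from 0.754 to 24.8. Its difference was 0.36 (SE 0.69), or -0.14 without control 9 and 0.73 without starch 2. NR0B2, a repressor induced by the receptor, differed by -0.05 (SE 0.52). ABCC2, an apical organic anion pump, was lower in median (62.1 against 133 CPM, difference -0.72, SE 0.48), with a difference of -1.20 without control 6 and -0.47 without starch 2, and ABCC3, its basolateral relative, differed by 0.18 (SE 0.29). MALRD1, a protein that promotes FGF19 output, differed by -0.60 (SE 0.39), FGFR4, the FGF19 receptor, by -0.33 (SE 0.36), and its coreceptor KLB by -0.34 (SE 0.29). Without starch 5 the differences of NR1H4, RXRA, MALRD1, FGFR4 and KLB were -0.26, -0.26, -0.37, -0.04 and -0.09.

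**Figure D3:**
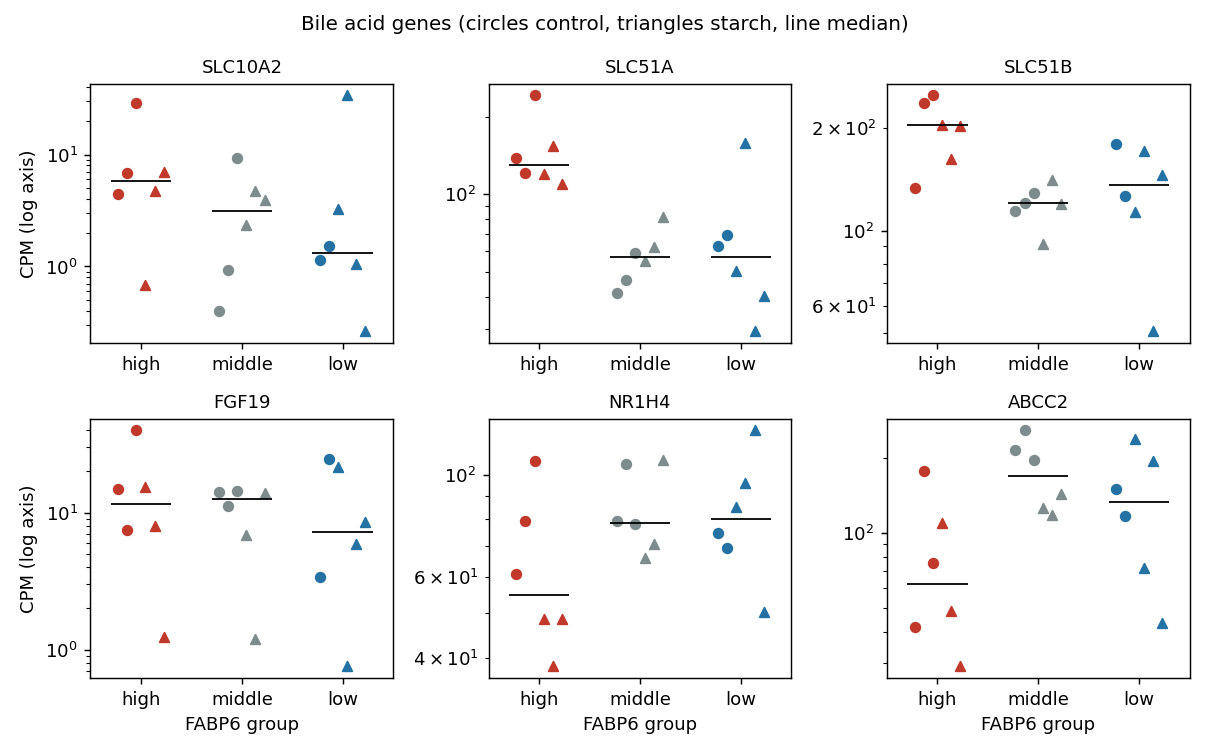
CPM on log axes of 6 bile acid genes in the FABP6-high, middle and FABP6-low samples, circles control, triangles starch, horizontal lines group medians. In the SLC51A panel 1 FABP6-low sample, starch 4 at 159 CPM, lies among the FABP6-high samples.

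The remaining genes offered as marks of the FABP6-high samples did not separate the groups. RBP4, the plasma retinol carrier, ran from 0 to 22.3 CPM (median 0.699) in the FABP6-high group and from 0.427 to 7.32 (median 1.60) in the FABP6-low group. Its fitted log2 difference of 1.07 (SE 1.07) and its medians pointed in opposite directions, and without control 6 the difference was -0.37. AQP10, a water and glycerol channel, ran from 3.86 to 71.7 CPM and from 0.503 to 126. Its difference was -0.84 (SE 1.03), or -0.31 without starch 5 and -1.52 without control 6. Among SLC10A2, SLC51A, RBP4 and AQP10, only SLC51A thus separated the 12 sorted samples in all but 1, with middle samples near the FABP6-low group in median. The groups are called by their FABP6 level here and by no position.

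Factors that pattern the gut were mostly lower in the FABP6-high group. Of 17 tested members, 4 were higher and 13 lower, none without overlap, with a median log2 difference of -0.31. GATA4, the proximal factor, ran from 4.62 to 9.51 CPM (median 6.82) in the FABP6-high group and from 6.91 to 15.3 (median 12.02) in the FABP6-low group, a difference of -0.76 (SE 0.22). Starch 4 was the only FABP6-low sample to overlap, and without it the difference was -0.86. In the middle samples GATA4 ran from 4.07 to 16.3 CPM, wider than either group.

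HNF4G, an enterocyte nuclear receptor, had a median of 99.4 CPM in the FABP6-high group and 172 in the FABP6-low group (difference -0.72, SE 0.24). Its relative HNF4A differed by -0.31 (SE 0.15). PROX1 differed by -0.66 (SE 0.40), and by -0.17 without starch 5. The intestinal master factor CDX2 differed by -0.10 (SE 0.19). PRDM1, the repressor that maintains the suckling state of the enterocyte in mice, is on the endocytosis and plasma cell lists and not among the gut factors counted above. It had medians of 40.5 and 63.1 CPM (difference -0.92, SE 0.31). Of 7 plasma cell genes 6 were higher and 1, PRDM1, was lower. Which cells gave its message was not tested. These factors moved beside the absorptive genes below, and whether that played a part was not tested.

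HOX genes record position along the body axis and are expressed chiefly in the gut wall. The listed members HOXA9 to HOXA13, HOXB9, HOXB13, HOXC9, HOXC10 and HOXD8 to HOXD13 were not tested. The values therefore say nothing of them. Of 13 tested, 11 were higher, beside 54.6% of all genes, with a median difference of 0.22 and none without overlap. HOXB5 had the largest, 0.64 (SE 0.30), with medians of 4.93 and 2.92 CPM. HOXA5, HOXC6 and HOXD4 differed by 0.41, 0.38 and 0.39. HOXC6 differed by 0.21 without control 4. All lay below 20 CPM in each of the 12 samples.

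**Figure D4:**
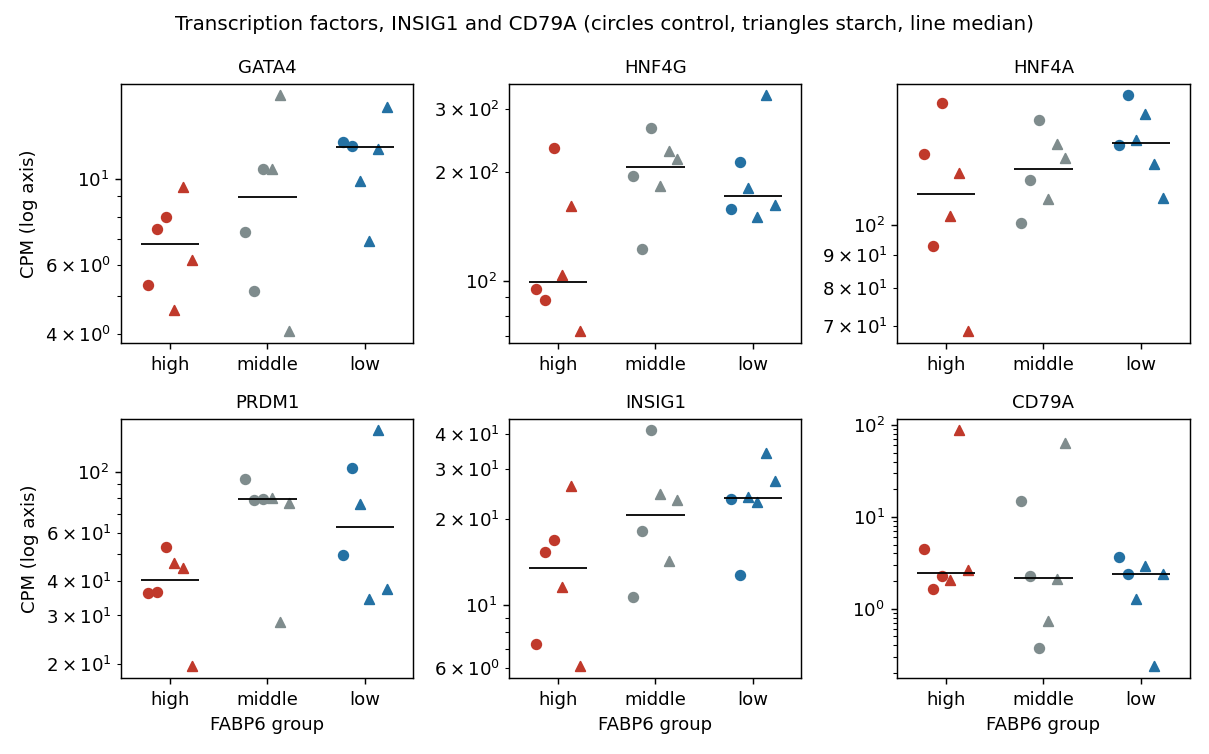
CPM on log axes of GATA4, HNF4G, HNF4A, PRDM1, INSIG1 and CD79A in the FABP6-high, middle and FABP6-low samples, circles control, triangles starch, horizontal lines group medians. The FABP6-high values of the transcription factors and INSIG1 sit lower in median than the FABP6-low values, and 1 FABP6-high sample, starch 10, carries the high CD79A value of 87.1 CPM.

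Fat absorption genes other than APOB were higher in 3 and lower in 12 of 15 tested, with a median log2 difference of -0.25. MTTP, which loads lipid onto APOB, had medians of 353 and 708 CPM (difference -0.63, SE 0.39; -1.01 without control 6). DGAT2, an enzyme of triglyceride synthesis, differed by -1.07 (SE 0.61), and by -0.17 without starch 5. CREB3L3, a regulator of lipoprotein genes, differed by -0.46 (SE 0.41), by -1.002 without control 6 and by -0.22 without control 2. FABP2 differed by -0.41 (SE 0.64), and by 0.35 without control 2, which had 3918 CPM. Vitamin A genes were divided, 5 higher and 4 lower of 9, with a median of 0.01.

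Other absorptive groups showed similar small shifts. Brush-border peptidases were higher in 2 and lower in 8 of 10 (median -0.15). ACE, which trims peptides at the brush border, had the largest difference, -1.11 (SE 0.72; -0.73 without starch 5), with 193 to 1173 CPM in the FABP6-high group and 32.8 to 2643 in the FABP6-low group. Sugar digestion and transport genes were higher in 5 and lower in 10 of 15 (median -0.16), and sucrase-isomaltase (SI) differed by -0.22 (SE 0.41). Amino acid and peptide transporters were higher in 5 and lower in 8 of 13 (median -0.18). SLC7A8 differed by -0.81 (SE 0.70), by -0.29 without starch 5 and by -1.27 without control 6.

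Water and ion transport genes were higher in 6 and lower in 14 of 20 (median -0.23). SLC9A2, a sodium-proton exchanger, ran from 20.4 to 40.0 CPM (median 27.9) in the FABP6-high group and from 26.2 to 69.1 (median 49.5) in the FABP6-low group, a difference of -0.71 (SE 0.22). Iron and calcium absorption genes were higher in 1 and lower in 9 of 10 (median -0.26). Among them the iron exporter SLC40A1 differed by -0.82 (SE 0.63), by -0.06 without starch 5 and by -1.26 without control 6. Genes of vitamin B12 and protein endocytosis, a task of the ileum, were higher in 5 and lower in 6 of 11 (median -0.26). CUBN, the receptor of the B12 complex, differed by 0.22 (SE 0.60) and its partner AMN by -0.26 (SE 0.62). The endocytic adaptor DAB2 differed by -0.66 (SE 0.60), by -0.12 without starch 5 and by -1.07 without control 6. In none of these genes were the groups free of overlap.

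Epithelial identity genes stood level beside these shifts, 6 higher and 5 lower of 11 with a median of 0.04. Smooth muscle genes were 7 higher and 3 lower of 10, with a median difference of 0.06, but their summed level was higher in median in the FABP6-high group. The sum was 7680 to 16603 CPM (median 14549) there and 8070 to 20690 (median 9543) in the FABP6-low group. A part of muscle content in the shifts above was not tested.

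Cholesterol synthesis genes all pointed one way. All 18 members tested were lower in the FABP6-high group, with a median difference of -0.48, and none was free of overlap. INSIG1, a sterol sensor of the endoplasmic reticulum, ran from 6.07 to 26.2 CPM (median 13.4) in the FABP6-high group and from 12.8 to 34.3 (median 23.8) in the FABP6-low group, a difference of -0.87 (SE 0.31). MSMO1 and CYP51A1, enzymes of the sterol branch, differed by -0.67 and -0.65. The summed level of the list ran from 769 to 1209 CPM in the FABP6-high group and from 1011 to 1963 in the FABP6-low group. In the middle samples, which the groups did not use, the slope of these genes on FABP6 was positive in 15 of 18, opposite to the group difference.

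Enteroendocrine genes were higher in 9 and lower in 1 of 10 (median 0.27). CHGA, a granule protein of these cells, had medians of 184 and 146 CPM (difference 0.77, SE 0.33), and somatostatin (SST) 44.4 and 29.9 (difference 0.73, SE 0.29). GCG, the source of the ileal hormone GLP-1, differed by 0.64 (SE 0.35). Starch 11 had the highest CHGA, SST and GCG of the 12 samples, at 442, 83.8 and 313 CPM, and without it the differences were 0.41, 0.45 and 0.24. With the 4 highest against the 4 lowest samples CHGA differed by 0.05 and SST by 0.17. Goblet cell genes were higher in 6 and lower in 4 of 10 (median 0.31), a share near the 54.6% of all genes. Among them AGR2, a secretory chaperone, differed by 0.83 (SE 0.49), and by 0.24 without starch 11, TFF3 by 0.77 (SE 0.33) and by 0.46 without starch 11, and the mucin MUC2 by 0.54 (SE 0.31).

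**Figure D5:**
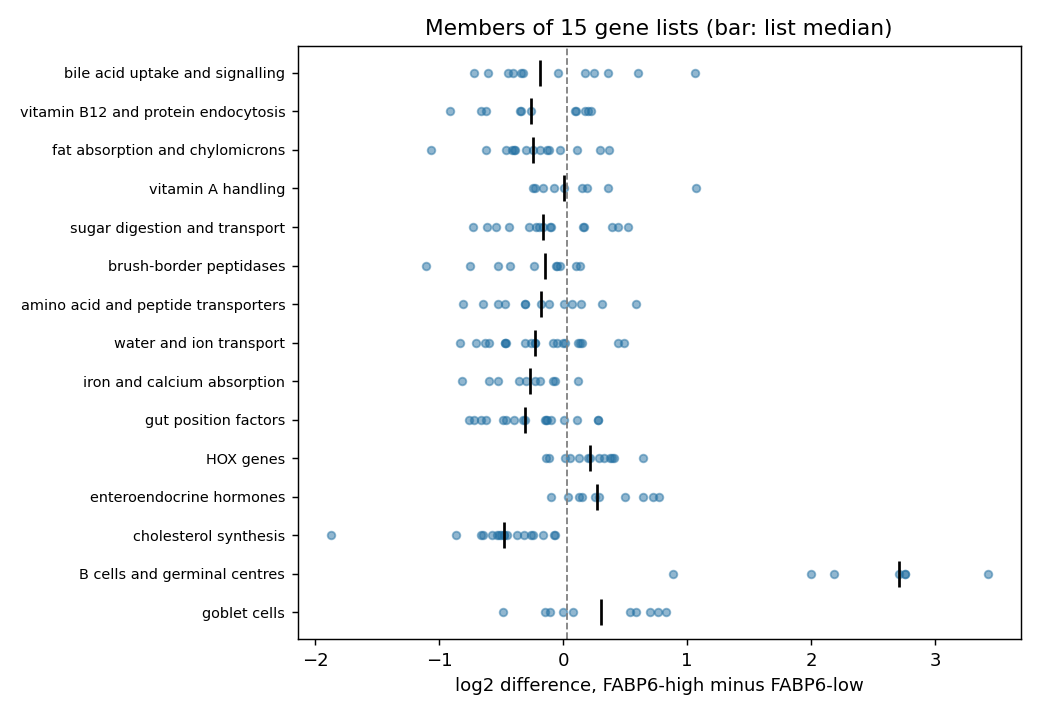
Log2 differences (FABP6-high minus FABP6-low, horizontal) of the tested members of 15 gene lists (rows), 1 point per gene, black bars for list medians and a dashed line for the median of all genes at 0.03. Cholesterol synthesis lies wholly below 0 with a median of -0.48, and the B-cell list lies farthest above it.

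B-cell genes had the largest median difference of any list, 2.71, with 7 of 7 higher, and 1 piglet carried most of it. CD79A, a subunit of the B-cell receptor, was 87.1 CPM in starch 10 and between 1.64 and 4.45 in the other 5 FABP6-high samples, against 0.236 to 3.70 in the FABP6-low group. CD79B differed by 3.42 (SE 1.18) with starch 10 and by 0.05 without it, CD79A by 0.31 without it and FCRL1, a receptor-like protein of B cells, by 0.86 without it. The summed level of the 7 genes was 761 CPM in starch 10 and 25.4 to 65.9 in the other FABP6-high samples, and 22.6 to 71.2 in the FABP6-low samples. Starch 9, a middle sample, had 515.

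Diet and depth were tested against FABP6. The rule did not use diet. The total count is the divisor of CPM, so the test of depth is not independent of the sort. Diet did not divide the groups, with 3 control and 3 starch piglets against 2 and 4 (odds ratio 2, Fisher's exact test, two-sided, p = 1). Among the 18 samples, FABP6 ran from 255 to 4818 CPM (median 1443) in 8 control piglets and from 336 to 5797 (median 1467) in 10 starch piglets. The difference in mean log2 CPM, starch minus control, was 0.15 (exact permutation test, two-sided, p = 0.824). The sign of this difference turned without control 2, control 3, starch 8 or starch 10, with values from -0.19 to -0.03. Total expected counts were 7309127 ± 522551 in the FABP6-high group and 7934435 ± 580818 in the FABP6-low group (SD, n = 6 each; exact permutation test, two-sided, p = 0.0736). Without starch 10, control 9 or control 2 the exact permutation p was 0.0498, 0.0476 and 0.0216. Leaving out any other sample gave an exact permutation p from 0.0714 (without starch 6) to 0.158 (without control 6). The smallest p that 6 against 6 allows is 0.00216. The share of counts from mitochondrially encoded messages was 15.6 to 21.3% in the FABP6-high group and 14.5 to 26.4% in the FABP6-low group, so the ranges overlapped.

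The 6 middle samples are libraries the groups did not use, but the same FABP6 sort set them. The slope of each gene on FABP6 was fitted there, which is a different measure from the group difference. It uses the FABP6 values that the rule sorted by, so it is not independent of the sort. FABP6 there ran from 1012 to 2433 CPM, a narrower range than that between the groups. With edgeR's quasi-likelihood test of the slope on log2 FABP6 CPM, 0 of 13514 genes passed an adjusted p of 0.05 (0%), and 1578 (11.7%) had an unadjusted p below 0.05. DESeq2 called 117 genes on the same samples. Leaving out control 10 gave 20 calls with edgeR and leaving out control 1 gave 1.

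SLC51A had a slope of 0.47 per doubling of FABP6 in the middle samples (SE 0.18; edgeR, unadjusted p = 0.0287, adjusted p = 0.385). SLC10A2 had a slope of 2.23 (SE 0.84; unadjusted p = 0.0276, adjusted p = 0.381). RBP4 had a slope of -4.80 (unadjusted p = 0.00105, adjusted p = 0.302), against a fitted difference above 0 between the groups. Neither exporter subunit, uptake carrier nor retinol carrier passed the adjustment over all genes. SLC51B had a slope of 0.04 (SE 0.20) and GATA4 of -0.05 (SE 0.62). Of all slopes 50.2% were positive. Positive slopes numbered 3 of 15 for fat absorption, 2 of 10 for peptidases, 6 of 14 for sugar genes and 3 of 13 for amino acid transporters. They numbered 8 of 20 for water and ion transport, 3 of 10 for iron and calcium and 5 of 17 for gut factors. They were 1 of 11 for B12 and endocytosis, 6 of 13 for HOX, 5 of 10 for enteroendocrine and 4 of 10 for goblet genes. They were 5 of 12 for bile acid, 2 of 9 for vitamin A and 7 of 7 for B-cell genes. The B-cell count is not a repeat of the group difference. Starch 9, the middle sample with the highest FABP6, had a summed B-cell level of 515 CPM, and the other middle samples 25.7 to 144. These slopes were not examined without starch 9. Of the 15 genes whose groups did not overlap, 12 had a slope of the same sign as their group difference, as did 53.0% of all genes. GJA10 was among the exceptions, with a slope of -0.12, and CCDC126 had a slope of -0.75 (unadjusted p = 0.213).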

How the data were processed

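RNA-seq of distal small intestine from 21 piglets was used, 1 deposited file per piglet. Per the file headers, the authors gave each transcript a coding length, an expected count (estimated, not normalised) and an FPKM value scaled for length and depth. HISAT and DESeq2 are named, with no version, per the submitters' processing notes. What counted the reads, on which genome build and with which strand setting is not given in the sources used here, so overlapping or near-identical genes are uncertain. Transcripts not listed for a piglet were taken as 0.

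Expected counts were summed per gene and rounded to whole numbers. Of 18661 genes, 14276 (76.5%) matched a symbol. CPM used the sample total. Log2 differences and SE came from edgeR 4.0.16 (limma 3.58.1, R 4.3.3) with TMM scaling and filterByExpr (minimum count 10, minimum total 15). Overlap was judged on TMM-scaled log2 CPM with a prior count of 2, so unscaled CPM ranges can touch where the scaled ones do not. The middle samples were tested with edgeR's quasi-likelihood test, adjusted by Benjamini-Hochberg over all genes at 0.05. Scripts were tested on simulated data. DESeq2 1.42.0 and log2(FPKM + 0.5) were alternatives, as were other scalings, filters, group sizes and APOB minimums, covariates, and each sample left out in turn. Depth, 6719264 to 8610458 counts, leaves counting error small for abundant genes and large near the filter, as for GJA10 and CCDC126.

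The samples, 33 gene lists and tests were chosen with earlier results of these data known, and the 15 lists described were picked after their values were seen. Named genes were FABP6, APOB, FABP2, SLC10A2, SLC51A, RBP4, AQP10, every bile acid member, up to 12 called genes per direction with a symbol and a mean of at least 5 CPM (none met this), and up to 4 members of each described list with the largest difference. Other list members are named as further examples. Counts of TTR, CA1 and HOXC10 were identical to those of another gene. FABP1 and some other genes were not analysed here, and some named by the rule are not reported here. Same-numbered piglets past the APOB minimum made 7 pairs, which share only a number. Figures were drawn with matplotlib 3.10.9.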

Additional observations from a re-analysis of the deposited data

Results flagged for a closer look

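In each group of 6 samples the highest and lowest CPM of the 85 named genes were compared with the rest of their group by Dixon's ratio, which sets the gap to the next sample against the whole range. A value past the 95% limit stood apart in 29 of 170 group-by-gene sets (17.1%), and all 29 were high values. The limit passes about 1 in 20 sets only where values are normally distributed. CPM was used without logs, so the share is not read as an excess over chance. The genes are not independent of each other. No explanation was tested.

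Control 6 stood high in the FABP6-high group for 7 genes. Its APOB was 6437 CPM, MTTP 789 CPM, CREB3L3 584 CPM and S100G, an intestinal calcium-binding protein, 1056 CPM. Its AQP8 was 131 CPM, SCNN1A, a sodium channel subunit, 49.3 CPM and the sugar transporter SLC2A7 18.01 CPM.

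Control 9 stood high in the same group for 3 bile acid genes, SLC10A2 at 29.0 CPM, SLC51A at 242 CPM and FGF19 at 39.9 CPM. Its FABP6 was 4818 CPM, the second highest of all samples. Starch 10 stood high for B-cell genes, with CD79B at 100.4 CPM, FCRL1 at 36.1 CPM, CD79A at 87.1 CPM and POU2AF1 at 125 CPM. Starch 11 stood high for the amino acid transporter SLC38A5 at 99.4 CPM.

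Starch 4 stood high in the FABP6-low group for SLC10A2 at 33.8 CPM, SLC51A at 159 CPM and the calcium channel TRPV6 at 30.9 CPM. Starch 5 stood high for 7 genes there: GLB1 at 446 CPM, CTSB at 1277 CPM, DGAT2 at 55.9 CPM, SCNN1A at 89.6 CPM, SLC40A1 at 673 CPM, HNF4G at 327 CPM and PROX1 at 15.1 CPM. GLB1 and CTSB encode lysosomal enzymes. Control 2 stood high for SLC2A7 at 16.1 CPM, the enteropeptidase gene TMPRSS15 at 15.9 CPM and AQP8 at 294 CPM. Control 3 stood high for GCG at 213 CPM.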

How the results depend on the processing

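The counts of genes called higher and lower, 1 and 1, were unmoved by RLE or upper-quartile scaling, DESeq2, log2(FPKM + 0.5), an APOB minimum of 400 CPM, sorting by FABP6 FPKM and leaving out mitochondrially encoded messages. They were 7 and 3 with no filter, 2 and 2 with a mean of at least 1 CPM, 18 and 16 with the 4 highest against the 4 lowest, and 0 and 0 with 9 against 9. With no APOB minimum 4 were higher, with diet as a covariate 2 were lower, and with the epithelial list score as a covariate 3 were lower. Leaving out each sample gave 1 to 6 higher and 1 to 3 lower. Settings chosen after seeing the data gave 18 and 19 without starch 4 and starch 6, and 12 and 4 without starch 10 and starch 4. Fewer samples make complete separation easier by construction. The cause of the other shifts was not tested. Of the alternative values for the 85 named genes, 2334 stayed within the spread between samples, 45 moved beyond it and 0 changed sign among called genes. A change of sign was counted for called genes only, and few named genes were called. Other genes could turn sign within a wide spread and count as unmoved. SCNN1A went from -0.60 to 1.18 without starch 5, AQP8 from -0.63 to 0.79 without control 2, and RBP4 from 1.07 to -0.37 without control 6. Of the 45 moved values, 26 came with no APOB minimum, which puts the 3 samples with low APOB in the FABP6-low group.

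In the middle samples edgeR called 0 genes, DESeq2 117, and leaving out each sample gave 0 to 20. The cause was not tested. The FABP6 difference by diet, 0.15, lay between -0.19 and 0.41 when each piglet was left out, and turned to -0.07 without control 2, -0.19 without control 3, -0.03 without starch 8 and -0.06 without starch 10. With the replicate number as a block (7 pairs) it was -0.31 (exact permutation p = 0.609). The numbers are not stated to pair the piglets, and the FABP6 values of the pairs had a correlation of 0.22, a hint from this gene only. The odds ratio of diet was 2, and 1 with 9 against 9. The difference in total count, -625308, lay between -805976 and -490103 when each sample was left out, and passed 0.05 without starch 10, control 9 or control 2. Depth limits the precision of GJA10 and CCDC126, which lay below 3 CPM.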
